A study of Mus musculus with 4 samples.

Results

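PPARγ binding was described at 10 genes of lipid efflux and of the ABC transporter family in mouse alveolar macrophages (AMs): Abca1, Abcg1, Abca3, Abca7, Abca9, Abcc1, Abcc3, Abcg2, Apoe and Soat1. The genes were listed by name, by a rule that uses no measured value but was set with earlier results of these data known, and are 10 of the 20923 protein-coding genes annotated on the chromosomes that carry peaks. Peaks of both ChIP libraries that overlapped by at least 1 bp were merged, regions with a peak from each library were kept, and every region was given to the protein-coding gene whose curated RefSeq start site (TSS) lay nearest to its center. This gave 42 regions for the 10 genes, of 20233 regions in all. Genes without a region were retained.

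The data came from HT-ChIPmentation with an antibody against PPARγ, an assay in which immunoprecipitated chromatin is tagged for sequencing while still bound to beads. AMs of 9-week-old wild-type C57BL/6J mice, for which the labels name no treatment, were collected by bronchoalveolar lavage and sorted by flow cytometry. There were 2 ChIP libraries of this single group, called library 1 and library 2, and 2 input libraries that served as controls in peak calling. Nothing in the labels ties the libraries to separate animals, so a difference between them may be technical, and with a single group there was no contrast between conditions. Library 1 listed 83787 peaks and library 2 listed 28535, with a median fold enrichment over input of 4.44 and 5.07. The lists hold peaks and not reads, and sequencing metrics that the study supplies separately were not used, so no value was weighed by depth. The lists report binding, not expression. As a check of the labeled cell type, 6 of 6 AM marker genes (Siglecf, Itgax, Marco, Car4, Pparg and Mrc1) had regions, 52 in all, against 1 of 6 alveolar type II cell markers, which was Napsa with 1 region. Of all protein-coding genes 31.6% had a region, and the Wilson interval of the type II share, 3.01 to 56.4%, includes that value.

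Macrophages in the airspace take up surfactant lipid and must store or export the cholesterol it brings. Abca1 and Abcg1 move cholesterol and phospholipid out of the cell, to lipid-poor apolipoprotein and to formed lipoprotein particles respectively, Apoe is a secreted acceptor of that lipid, and Soat1 esterifies cholesterol for storage in droplets. PPARγ binds DNA together with RXR, classically at paired hexamers spaced by 1 base (DR1), whereas the oxysterol-sensing LXR receptors pair with RXR at hexamers spaced by 4 bases (DR4).

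The bases under the best ranked binding are given first, because the results below refer to where patterns fell in them. Each window holds the library 1 summit with 60 bp on either side, read from mm10 on the plus strand, and each is the best ranked region of its gene. The Abca1 promoter is the 250 bases before the TSS from RefSeq (GRCm38.p6, the assembly that mm10 names), written along the gene, and is shown because the region at that promoter had its library 1 summit there. Capitals mark DR1 with 2 mismatches in Abcg1, where it contained the library 1 summit, and TGAGTCA on either strand (AP-1) in Abcc1 and Apoe. In the Abca1 promoter they mark DR4 with 2 mismatches, GGGCGGG (KLF/SP) and CACGTG (E-box). The Abcg1 window also held DR4 with 2 mismatches, chr17:31020997-31021012, left in lower case apart from the base it shares with DR1. The windows of Abca1 and Soat1 had no capitals because no searched pattern fell within them.
Abcg1 best ranked region, chr17:31020962-31021082, plus strand: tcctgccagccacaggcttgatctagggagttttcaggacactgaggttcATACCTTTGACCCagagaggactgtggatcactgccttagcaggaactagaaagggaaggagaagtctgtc
Abca1 best ranked region, chr4:53120368-53120488, plus strand: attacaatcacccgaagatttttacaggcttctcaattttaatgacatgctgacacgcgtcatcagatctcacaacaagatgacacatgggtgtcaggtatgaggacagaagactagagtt
Abca1 promoter, chr4:53159896-53160145, minus strand: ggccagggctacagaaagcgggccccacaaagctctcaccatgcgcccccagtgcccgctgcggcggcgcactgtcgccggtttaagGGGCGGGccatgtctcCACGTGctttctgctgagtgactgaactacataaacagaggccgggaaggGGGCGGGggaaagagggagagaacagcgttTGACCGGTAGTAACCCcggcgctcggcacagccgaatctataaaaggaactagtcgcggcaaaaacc
Soat1 best ranked region, chr1:156471619-156471739, plus strand: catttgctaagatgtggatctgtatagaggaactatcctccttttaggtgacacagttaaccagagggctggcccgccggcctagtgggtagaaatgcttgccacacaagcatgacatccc
Abcc1 best ranked region, chr16:14350863-14350983, plus strand: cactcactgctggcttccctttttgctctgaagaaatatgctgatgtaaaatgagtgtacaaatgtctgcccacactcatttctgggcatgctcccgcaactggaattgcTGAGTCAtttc
Apoe region, chr7:19699771-19699891, plus strand: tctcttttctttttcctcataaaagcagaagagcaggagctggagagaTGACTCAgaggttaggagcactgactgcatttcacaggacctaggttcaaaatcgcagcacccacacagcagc

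Binding was concentrated at 3 of the 10 genes. Of the 42 regions, 20 were nearest to Abcg1, 12 to Abca1, 6 to Soat1, 2 to Abcc1, 1 to Abca9 and 1 to Apoe, and Abca3, Abca7, Abcc3 and Abcg2 had none. Thus 6 of 10 members had a region (60%, 95% Wilson interval 31.3 to 83.2%), beside 31.6% of all protein-coding genes, a share that the interval includes. Intervals of shares cover counting error only. Among the 6616 genes with a region the median was 2 regions, and 55 genes had more regions than Abcg1, 194 more than Abca1 and 693 more than Soat1.

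**Figure D1:**
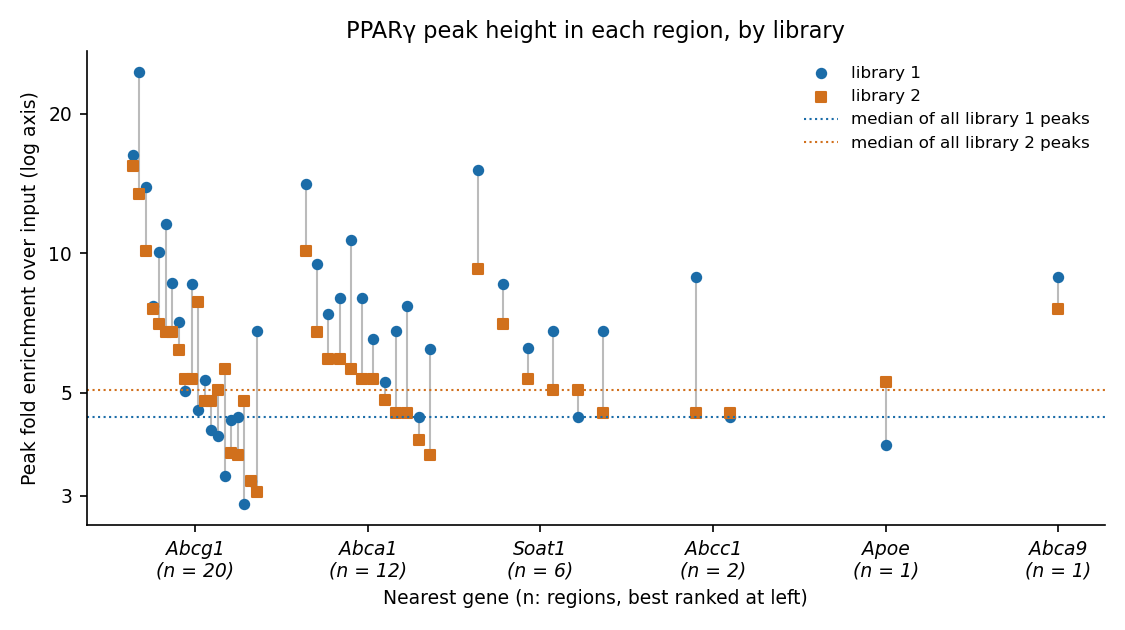
Peak fold enrichment over input (log axis) in every region of the 6 members that had one, with a circle for library 1 and a square for library 2 joined by a line. Regions run from the best ranked at left, n is the number of regions and dotted lines are the medians of all peaks, 4.44 and 5.07. The medians over all regions, not drawn, were higher, 6.81 and 5.35. The tallest peaks lay at Abcg1 (24.6 in library 1, 15.4 in library 2). Abca9, with 1 region, stood above all of these medians in both libraries.

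The number of regions also depends on how much sequence is nearest to a gene. Abcg1 had 22.9 regions per 100 kb of sequence closest to its TSS (87.5 kb), which was rank 277 among all genes, against a median of 3.54 per 100 kb for genes with a region. Soat1 and Apoe followed with 8.70 and 8.49 per 100 kb, the latter from a single region in 11.8 kb. Abca1 had 5.60 per 100 kb, Abca9 1.28 and Abcc1 1.03. The order by density thus put Abca1 below Apoe, whereas by count it was second.

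Abcg1, the exporter of cholesterol to lipoprotein particles, carried the highest peaks of the group and merged regions over more than 60% of its gene body. Regions were ranked by the lower of their 2 within-library percentiles of fold enrichment, with ties sharing a rank. The best ranked region, chr17:31019298-31025172, lay 35.5 kb upstream of the TSS, was 5875 bp wide and had a fold enrichment of 16.3 in library 1 and 15.4 in library 2, rank 147 of 20233. Its summits in the 2 libraries were 17 bp apart. The next, chr17:31037231-31042283, lay 17.9 kb upstream with values of 24.6 and 13.4 (rank 199), and its summits were 2033 bp apart within 5053 bp. These 2 intergenic regions were the only Abcg1 regions over 1 kb wide that lay upstream of the gene.

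The third Abcg1 region, chr17:31057608-31062926, spanned the TSS at 31057694 and reached into intron 1, with fold enrichments of 13.9 and 10.1 (rank 815). The next 2 in rank, both in intron 2, had 7.70 and 7.59 (chr17:31087617-31087919) and 10.1 and 7.03 (chr17:31073446-31076818). The other 15 regions ranked from 4179 to 19941, and included the widest of the group, 6350 bp in intron 2. In all, 14 Abcg1 regions lay downstream of the TSS in introns 1 to 3 and 6 lay upstream.

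Regions with a peak of each library, taken at their full merged extent, covered 62.9% of the 60.3 kb Abcg1 gene. All peaks of library 1 covered 73.0% and all peaks of library 2 covered 40.4%, so much of the merged extent came from library 1 only. Of 9468 protein-coding genes of at least 20 kb, 4 were covered more, namely Cytip, Ifrd1, Cd9 and Olr1, all with shorter bodies (20.1 to 34.5 kb); the length limit and these names were chosen after the values were seen. The median gene of that length had no covered base. The 3′ part of the Abcg1 gene held a further 11 region centers that were nearest to the TSS of Tff3, with fold enrichments of 3.23 to 10.1 in library 1 and 3.44 to 7.31 in library 2. Counted by gene body, Abcg1 therefore held 25 centers, and 8 genes held more.

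**Figure D2:**
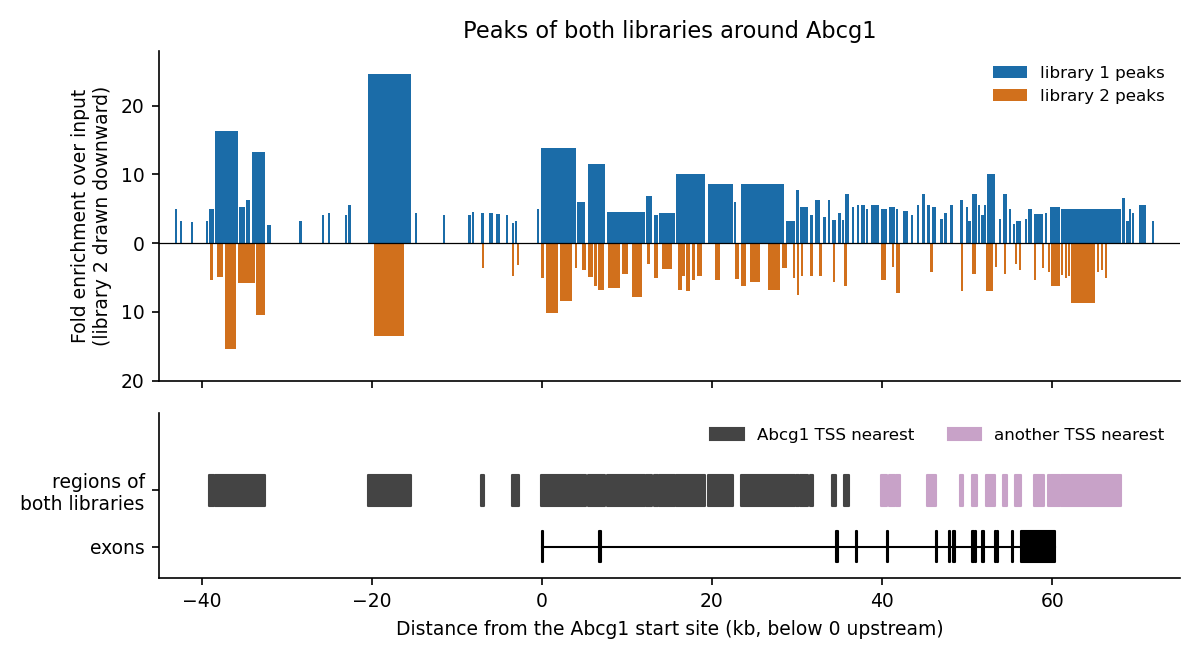
Peaks along Abcg1 against distance from its TSS (kb, below 0 upstream), with bar height the fold enrichment over input, library 1 drawn upward and library 2 downward. Below are the regions found in both libraries, dark where the Abcg1 TSS is nearest (20) and light where another TSS is, and the exons, with narrow features widened to stay visible. Peaks ran along the gene body in both libraries, and the 2 tallest stood upstream.

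Abca1, which loads lipid onto apolipoprotein, had fewer and more separated regions. The best ranked, chr4:53117663-53121232, lay in intron 5, 40.4 kb downstream of the TSS, was 3570 bp wide and had fold enrichments of 14.1 and 10.1 (rank 815). Of the 12 regions, 5 lay in intron 5 between 33.9 and 40.4 kb from the TSS, including the second in rank and another with 9.48 and 6.75 (chr4:53124261-53125182) and 7.41 and 5.91 (chr4:53121512-53122358). In intron 1, chr4:53148727-53150000 had 10.7 and 5.63.

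The region chr4:53158478-53160199 spanned the Abca1 TSS at 53159895 and had fold enrichments of 8.0 and 5.91 (rank 6419, tied with chr4:53121512-53122358). Only its library 1 peak covered the TSS, and the nearest library 2 peak lay 196 bp downstream of the TSS. The libraries placed the summit of this region at different positions, 934 bp apart. The library 1 summit was just upstream of the TSS and the library 2 summit in intron 1. Another 2 regions were intergenic, 58.5 and 68.1 kb upstream, with fold enrichments of 7.70 and 4.52 and of 6.52 and 5.35. Regions covered 8.51% of the 129 kb gene, and no peak of either library lay in the gene beyond 51.8 kb from the TSS. The library 1 value was the higher in 12 of the 12 regions, as it was in 71.8% of all regions.

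**Figure D3:**
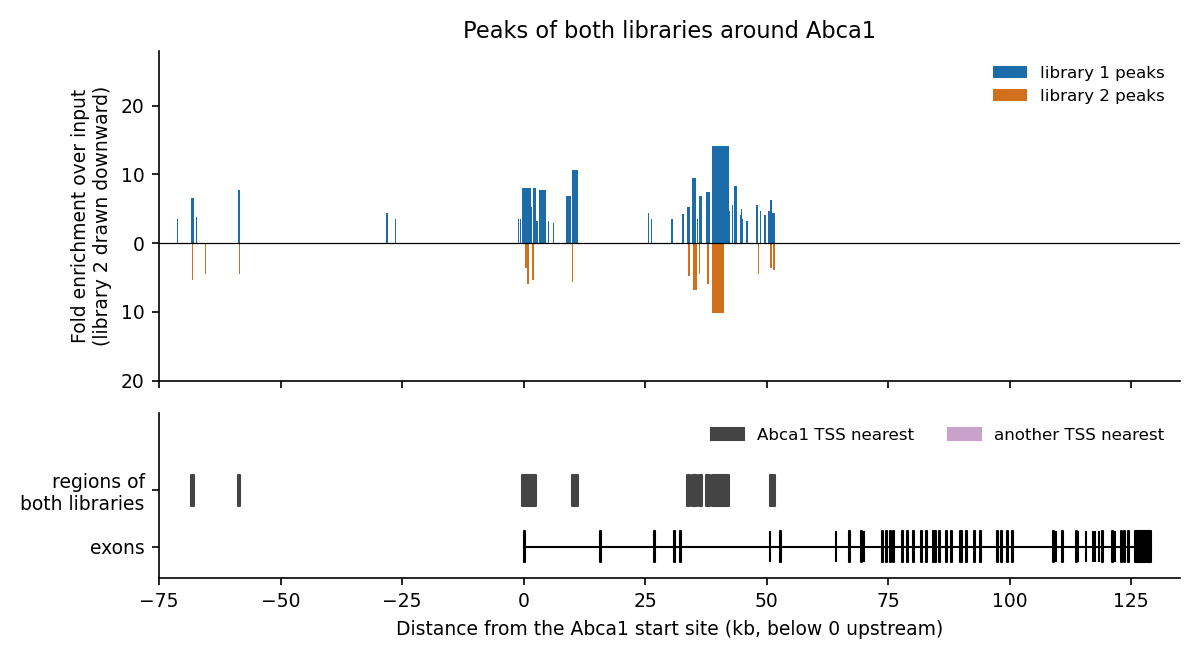
Peaks along Abca1 against distance from its TSS (kb, below 0 upstream), with bar height the fold enrichment over input, library 1 upward and library 2 downward. Below are the 12 regions and the exons, with narrow features widened to stay visible. Peaks stood at the TSS (library 1) or just downstream of it (library 2), in intron 1 and around 40 kb downstream. The 3′ part of the gene was without any.

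Soat1, the enzyme that esterifies cholesterol, had all 6 of its regions inside the gene, 5 in intron 1 and 1 in intron 2. The best ranked, chr1:156470815-156472245, lay 2.80 kb downstream of the TSS with fold enrichments of 15.1 and 9.26 (rank 1235). The second, chr1:156473172-156473937, lay 0.773 kb downstream with 8.59 and 7.03 (rank 3676). The remaining 4 had values between 4.44 and 6.81 in library 1 and between 4.52 and 5.35 in library 2. None was above the medians over all 20233 regions, 6.81 and 5.35. The medians of all single peaks, which include peaks of 1 library only, were lower, 4.44 and 5.07.

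Apoe, the secreted lipid acceptor, had 1 region, chr7:19699550-19699893, in its promoter with the center 0.534 kb upstream of the TSS. Its fold enrichment was 3.85 in library 1 and 5.27 in library 2 (rank 13497). Among all single peaks this was below the median of the first list and just above that of the second. Both values were below the medians over all regions, 6.81 and 5.35. The 2 peaks overlapped only in part, and their summits were 187 bp apart. Within 50 kb of the Apoe TSS there were 8 regions, of which 2 were nearest to Apoc2, 1 to Apoc4, 2 to Clptm1 and 2 to Tomm40. The Apoc4 region, 15.2 kb downstream of the Apoe TSS, had 6.81 and 7.45, and of the 8 the Apoe region had the lowest value in library 1.

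Abcc1 exports glutathione conjugates and leukotriene C4. Both of its regions were intergenic and upstream, chr16:14350651-14351105 at 10.7 kb with fold enrichments of 8.88 and 4.52, and chr16:14351552-14351795 at 9.88 kb with 4.44 and 4.52. Near the TSS each library had a peak, centered 0.455 kb upstream in library 1 (3.85) and 0.934 kb downstream in library 2 (4.24), and these did not overlap. Abca9, a family member expressed in macrophages whose substrate is less well defined, had 1 region, chr11:110165711-110166339, 2.13 kb downstream of the TSS with its center in exon 2, in the 5′ UTR. Its fold enrichments of 8.89 and 7.59 gave it rank 2852, above the only other single-region member, Apoe.

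The 4 members without a region differed in what the separate libraries held. Abca3, the lamellar body lipid transporter of type II cells, had 1 peak in each library near its TSS, at 0.728 kb downstream in library 1 (fold enrichment 5.33) and 0.447 kb upstream in library 2 (3.68), which did not overlap. Abca7, a phospholipid transporter related to Abca1, had 5 peaks in library 1 and none in library 2, and the highest, chr10:79996235-79996519, covered the TSS with 5.92 (q = 1.02e-09). Abcg2, an exporter of many drugs and of urate, had 4 library 1 peaks of 3.03 to 5.33 and none in library 2. Abcc3, a carrier of organic anions, had 1 library 1 peak, 12.4 kb upstream with 3.26, and none in library 2. A peak missing from a list was not detectable under the authors' threshold and is not shown to be absent.

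With each library taken alone, 10 of 10 members had a library 1 peak, beside 60.6% of all genes, and 7 of 10 a library 2 peak, beside 34.9%. Library 1 had 128 peaks nearest to the members, of which 47 (36.7%) lay in a region of both libraries, beside 26.9% of all 83787 library 1 peaks. The median fold enrichment of these 47 was 6.81, and that of the other 81 was 4.15. Library 2 had 69, of which 62 (89.9%) lay in such a region, beside 82.9% of all 28535, with a median of 5.35 against 4.50 for the other 7. Peaks of library 1 outside the regions were also narrower, with a median width of 158 bp against 637 bp. As over all peaks, most member peaks of library 2 were shared and most of library 1, the longer list, were not.

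**Figure D4:**
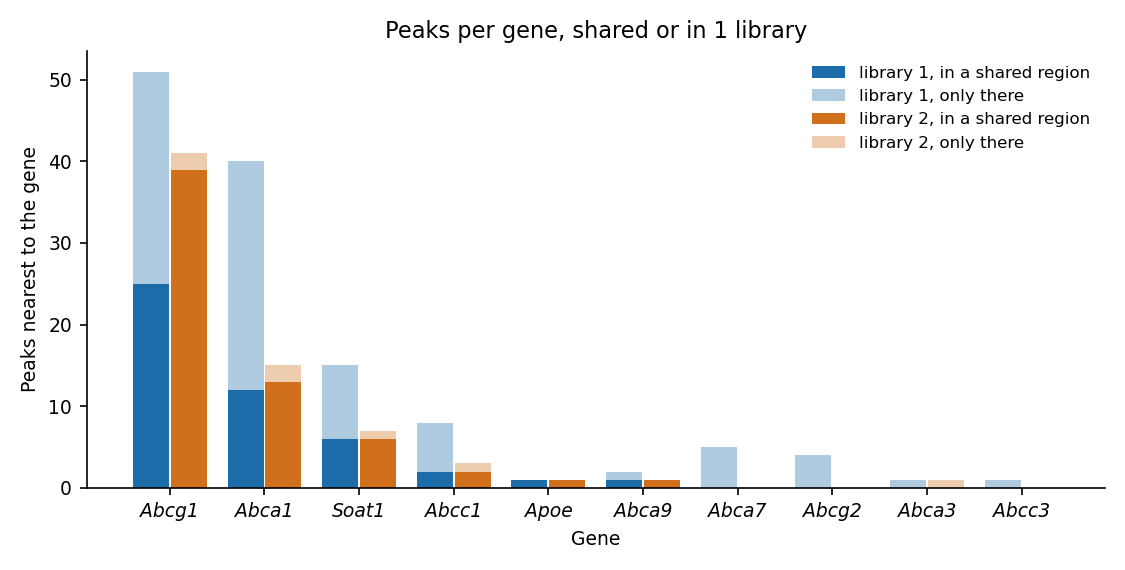
Number of peaks nearest to each of the 10 genes in library 1 and library 2, split into peaks in a region of both libraries (full color) and peaks in that library only (pale). Abcg1 had 51 and 41 peaks and Abca1 40 and 15, whereas Abca7, Abcg2, Abca3 and Abcc3 had pale bars only.

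Where both libraries had a peak, their heights were compared within each gene. Spearman's rho between the fold enrichments of the libraries was 0.72 over the 20 Abcg1 regions, 0.78 over the 12 Abca1 regions and 0.55 over the 6 Soat1 regions, beside 0.55 over all 20233 regions. The summits of the 2 libraries lay within 100 bp of each other in 16 of the 42 regions (38.1%), beside 52.7% of all regions. At Abcg1 this held for 5 of 20. Regions of a gene share a locus and the libraries, and are not replicates, so these are descriptions.

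The medians of height and width of the 42 regions lay close to those of all regions. The median fold enrichment was 6.81 in library 1 and 5.35 in library 2, the same as for all regions, and the median width was 652 bp beside 626 bp. Regions wider than 3 kb were 7 of 42 (16.7%) beside 2.61% of all, with 6 of these 7 at Abcg1 and 1 at Abca1. Of the 42, 33 lay over 3 kb from any TSS (78.6%, Wilson interval 64.1 to 88.3%) beside 61.4% of all regions, and 18 of the 20 Abcg1 and 10 of the 12 Abca1 regions were among them. Introns held 30 of the 42 (71.4%) beside 46.9%, and promoters 1 (2.38%), that of Apoe, beside 18.6%, by the position of the center. By extent, the regions over the TSS of Abcg1 and Abca1 also reached the promoter, that of Abca1 through its library 1 peak only. These shares were not tested, since 32 of the 42 regions came from 2 loci.

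Fixed letter patterns were sought on either strand in the 100 bp to each side of the library 1 summit, with the share among all regions beside each count. A match is a description of the letters and not a binding site. DR1 with at most 1 mismatch was found in 0 of 42 (beside 1.57%) and DR4 with at most 1 mismatch in 0 of 42 (beside 0.563%). At such low shares of all regions, 0 of 42 does not set the members apart. The single hexamer AGGTCA or GGGTCA, which is also part of DR1 and DR4, was found in 13 of 42 (31.0%, beside 23.3%), 6 of them at Abcg1, 4 at Abca1, 2 at Soat1 and 1 at Abcc1. Within 50 bp of the summit it was found in 4 of 42 (9.52%, beside 12.9%), below the share of all regions.

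With 2 mismatches allowed, a setting added after the data were seen, DR1 was found in 5 regions (beside 9.27%) and DR4 in 5 (beside 5.8%), and 2 Abcg1 regions were in both counts. In the best ranked Abcg1 region the DR1 match GGGTCAAAGGTAT, chr17:31021012-31021024 on the minus strand, contained the library 1 summit, and the library 2 summit lay in the adjoining DR4 match AGGACACTGAGGTTCA, chr17:31020997-31021012. At the Abca1 promoter the DR4 match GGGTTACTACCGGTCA, chr4:53159947-53159962 on the plus strand, contained the library 1 summit, from 67 to 52 bp upstream of the TSS. Among 32851 RefSeq promoters of 250 bases, 7.21% held DR4 at this stringency, 23.4% GGGCGGG and 6.02% CACGTG, all of which the Abca1 promoter held. The Abca7 promoter also held DR4 and GGGCGGG, and Abcg2 promoters GGGCGGG, though neither gene had a region of both libraries.

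For factors that occupy macrophage enhancers, TTGCNNAA (CEBP) was found in 9 of the 42 (21.4%, beside 15.1%) and TGAGTCA (AP-1) in 7 (16.7%, beside 7.23%). The AP-1 matches were at Abca1 and Soat1 in 2 regions each and at Abcg1, Abcc1 and Apoe in 1 each, that of Apoe 9 bp from the summit. Of the 9 CEBP matches, 4 were at Abca1, 2 at Abcg1, 2 at Soat1 and 1 at Abca9, where it lay 24 bp from the summit. GAGGAAGT (PU.1) was found in 3 (beside 6.83%), TTCNNNGAA (STAT) in 3 (beside 7.3%), GGGCGGG (KLF/SP) in 2 (beside 6.38%), CACGTG (E-box) in 2 (beside 4.33%) and AACCACA (RUNX) in 1 (beside 8.02%). RUNX was found in 4 (9.52%, beside 7.29%) around the library 2 summit and in 7 (16.7%, beside 13.2%) within 200 bp, above the share of all regions, whereas STAT and E-box were each found in 0 around the library 2 summit. The shares of PU.1, KLF/SP and E-box also changed sides with the summit or window used, and those of CEBP and AP-1 stayed above that of all regions in each setting run. These differences in share were not tested, since the counts are small and most come from a few loci.

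**Figure D5:**
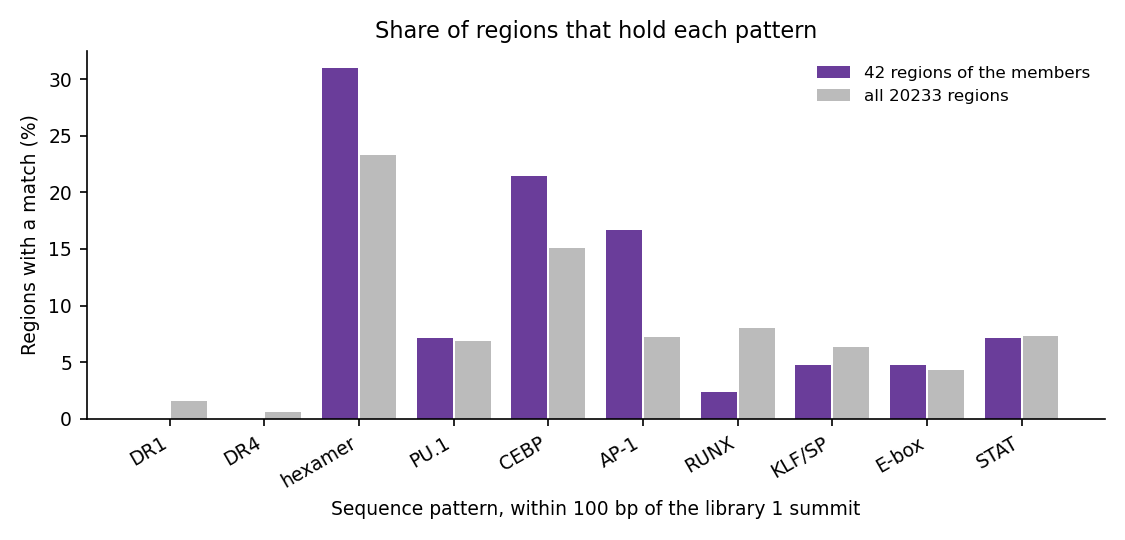
Share of regions (%) with each pattern within 100 bp of the library 1 summit, for the 42 regions of the members and for all 20233 regions. DR1 and DR4 stood at 0 in the members, beside 1.57% and 0.563% of all regions, and AP-1 at 16.7% beside 7.23%.

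Genes around the members in the pathway were described in the same way. Of 42 other ABC transporter genes, 9 had a region (21.4%, Wilson interval 11.7 to 35.9%), an interval that includes the 31.6% of all genes, and they had 25 regions in all. Abcd2, a peroxisomal transporter of very long-chain fatty acids, had 12 and Abcc5, an exporter of cyclic nucleotides, had 5, with best fold enrichments of 19.0 and 10.4 and of 12.7 and 14.0 in libraries 1 and 2. Abcd3 had 2, and Abcg3, Abcb8 and Abcf1 had 1 each. Abca12, Abca13, Abca14, Abca15, Abca16 and Abca17 had none, and of these only Abca13 and Abca17 had library 1 peaks (4 and 2). Over the whole family, Abcg1, Abca1 and Abcd2 held the most regions.

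Of 18 other genes of cholesterol handling, 14 had a region (77.8%, Wilson interval 54.8 to 91.0%), beside 31.6% of all genes, and they had 75 regions in all. Nceh1, which hydrolyzes cholesteryl ester, had 23, with a best fold enrichment of 12.1 and 14.0, more regions than Abcg1. Lipa, the lysosomal acid lipase, and Npc2, which hands on cholesterol in the lysosome, had 8 each. Mylip, which degrades the LDL receptor, Pltp, the phospholipid transfer protein, and Ch25h, which makes 25-hydroxycholesterol, had 7 each. The best ranked region lay 88.6 kb from the TSS for Ch25h, and 1.83 to 18.8 kb away for the other genes just named. These counts were not adjusted for how much sequence is nearest to each gene. Apoc1, Cyp27a1, Lcat and Nr1h2 had none. The genes for ester hydrolysis, Nceh1 and Lipa, thus had regions of both libraries. Of the genes for ester formation, Soat1 and Soat2 had such regions and Lcat had none. Soat2 had 1, centered 0.175 kb from its TSS with 16.0 and 9.19.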

How the data were processed

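PPARγ HT-ChIPmentation of 2 ChIP libraries was analyzed, with the input libraries serving only in the authors' peak calling. The submitters' processing notes name mm10, MACS3, SAMtools, Bowtie2, cutadapt, CASAVA and bcl2fastq (2.20.0.422). Peaks were called for each library at a q of 0.05, with no pooling. The deposited lists give each peak's position and summit, the fold enrichment over input (a linear ratio), the −log10 p-value, the −log10 q-value, and a score derived from the latter. The largest q was 0.0497 and 0.0464. The lists hold no counts, and the depth metrics among the study's supplementary files were not used here. A shallower library misses weak peaks. No other columns of values were left out (0).

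Regions, TSS assignment (curated RefSeq transcripts, chromosomes 1 to 19 and X), location of the center (promoter first, from 1 kb before to 100 bp after a TSS), ranks and pattern counts were computed with Python 3.11.15, pandas 2.3.3, numpy 2.4.6 and statsmodels 0.14.6 (Wilson intervals). Fold enrichments were compared within a library by percentile. Merging, assignment and pattern search were tested on simulated data. There was 1 group, so no test between conditions was possible. The members, lists and patterns were chosen with earlier results of these data known. Every member was named. Of the other lists, up to 6 genes with the most regions and up to 6 alphabetically first without one were named, and Soat2 was added beside Soat1. Regions were printed in full for members with up to 5, and the 5 best ranked for Abcg1 and Abca1. For Soat1 the best ranked and the second were printed, and the rest were given as a range. Sequence windows were shown for the members with a region other than Abca9. Alternatives were stricter peaks, other overlap and assignment rules, each library alone, and other windows and mismatches. Promoter sequences of Abca1 and the background promoters came from RefSeq.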

Additional observations from a re-analysis of the deposited data

How the results depend on the processing

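No paired analysis was possible because the input libraries that share the replicate numbers have no peak list and a single group was described. The 42 regions at the members became 22 with a fold enrichment of at least 5, 21 with 50% reciprocal overlap and 18 with summits within 100 bp. Under the same 3 rules, the 20233 regions of all genes became 10719, 10420 and 11414. From a single library, regions at the members ranged from 69 (library 2) to 128 (library 1), beside 28535 and 83787 over all genes. Members with a region ranged from 7 to 10 with a single library, and from 4 to 8 under the other alternatives. Of all genes, 31.6% had a region, against 22.7, 22.4 and 24.2% under the fold, overlap and summit rules. Apoe lost its region under all 3 of these rules and Abcc1 under the fold limit. Abcg1, Abca1, Soat1 and Abca9 kept at least 1 under every alternative run, but with fewer regions at the first 3. Under the fold, overlap and summit rules the 20 Abcg1 regions became 10, 10 and 7. The 12 of Abca1 became 7, 4 and 6, and the 6 of Soat1 became 4, 5 and 3. Counted within the gene and 10 kb around it, Abca3 and Abca7 had 1 region each, which gave the count of 8 members. Both regions lay outside the gene body and close to another gene's TSS. The Abca3 one was in the Rnps1 promoter, and the Abca7 one was 0.151 kb from the Arhgap45 TSS. The median width of 652 bp was 1098 bp with a fold enrichment of at least 5, and that of all regions went from 626 to 889 bp. DR1, at 0 regions, was found in 1 around the library 2 summit, in 1 within 200 bp and in 5 with 2 mismatches; this last alternative was added after seeing the data. With summits within 100 bp, the best ranked regions of Abca1 and Soat1 fell from percentile 96.2 to 64.7 and from 94.3 to 57.9. Of the 31 alternative values for the whole group, 21 stayed within the limit set for them, as did 102 of 145 for single genes and patterns. The cause of these shifts was not tested, beyond the fewer or more peaks each rule admits. Depth, not used here, limits what the lists can show of weak peaks.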

Other observations

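The ABC families, members included, were counted for genes with a region of both libraries, beside 31.6% of all genes and with no test. Regions were nearest to 3 of 4 Abcd genes (15 regions), 3 of 10 Abcc genes (8), 2 of 6 Abcg genes (21), 2 of 16 Abca genes (13), 2 of 10 Abcb genes (2), 1 of 3 Abcf genes (1) and 0 of 1 Abce gene. The Abcd family serves fatty acid import into peroxisomes, and 12 of its 15 regions were nearest to Abcd2. All 21 Abcg regions but 1 were nearest to Abcg1.

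Of the 8 genes of at least 20 kb with 50% or more of the body covered by regions, Abcg1 (62.9%) and Nceh1 (56.5% of 61.9 kb) were the longest, and both act in cholesterol handling. The others were Cytip, Ifrd1, Cd9, Olr1, Plek and Il17ra. Olr1, a receptor for oxidized lipoprotein, was covered over 64.7% of 21.9 kb. These genes were picked out after their values were seen, with no test.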
